A study of Rattus norvegicus with 20 samples.

Results

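The livers of male rats given BGZ_L powder alone were compared with those of rats given vehicle, by RNA sequencing. The comparison was chosen by treatment label and takes the 5 libraries labelled BGZ_L (0.9 g/kg of powder, no hydrocortisone) and the 5 labelled CON (0.5% CMC-Na, the vehicle), 10 of the 20 libraries of the series. Values were given for 32850 genes with a symbol, and the 11867 genes with enough signal were tested. The other 10 libraries come from rats given hydrocortisone at 25 mg/kg, either alone (KYDS, 5 libraries) or with the same dose of powder (KYDS+BGZ_L, 5 libraries). They set the powder's difference with and without hydrocortisone side by side. They also entered the same fit, so the scaling, the gene filter and the spread estimate behind each gene's p-value rest on all 20 libraries. The series title names Psoraleae Fructus, a dried fruit used in Chinese medicine, and a rat model of kidney-yang deficiency. The labels call the rats of both groups healthy, and they do not state strain, age, hour of sampling, route or length of dosing. It is also not stated whether the powder was suspended in the vehicle, or whether the rats given hydrocortisone received the vehicle. Whole liver tissue was used, so in every result fewer cells of a type and less RNA per cell cannot be told apart.

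Liver RNA responds to what is eaten and absorbed through several receptor systems. The aryl hydrocarbon receptor (AhR) binds planar aromatic compounds and switches on the detoxifying genes Cyp1a1, Cyp1a2 and Nqo1, while the factor NRF2 answers to oxidants and the receptors CAR and PXR to many drugs. Insulin and feeding raise the fat-making enzymes through the factor SREBP1c, and sterol shortage raises cholesterol synthesis through SREBP2. The circadian clock gives many liver genes, among them Dbp, Nr1d1 and the Per genes, a daily rise and fall.

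Libraries varied more within each group than between the groups. The 13 mitochondrially encoded genes held 65.6% to 90.1% of TPM (a level scaled for gene length and library total) in CON and 39.6% to 81.9% in BGZ_L, with means of 75.1% ± 10.2 and 67.3% ± 17.3 (SD, n = 5 each, exact permutation p = 0.468, two-sided). The factor that scales each library to the others ran from 0.231 in CON 2 to 1.35 in BGZ_L 4, with group means of 0.774 ± 0.424 and 0.785 ± 0.392 (SD, n = 5 each, exact permutation p = 0.960). BGZ_L 1 stood apart in the share of ribosomal RNA genes, 20.6% against 0.141% to 2.79% in the other BGZ_L libraries, and in the share of the small RNAs of the signal recognition particle and 7SK, 4.11% against at most 0.243%. Of 6 such measures none differed between the groups (Benjamini-Hochberg adjusted exact permutation p = 0.960 for each, two-sided, smallest p possible 0.00794), although a design of this size can miss a moderate difference. Hepatocyte markers were high in all 10 libraries: the summed scaled level of 13 hepatocyte markers lay between 6144 and 10011 in CON and between 5997 and 6794 in BGZ_L, whereas kidney tubule markers summed to at most 0.963. Lists of other organs summed higher, up to 42.1 for pancreas acinar markers (BGZ_L 5), 26.6 for muscle (CON 3) and 101 for intestine (CON 1). Most of each of these sums came from 1 gene, namely Cela1 (35.8), Actn2 (25.0) and Apoa4 (100).

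**Figure D1:**
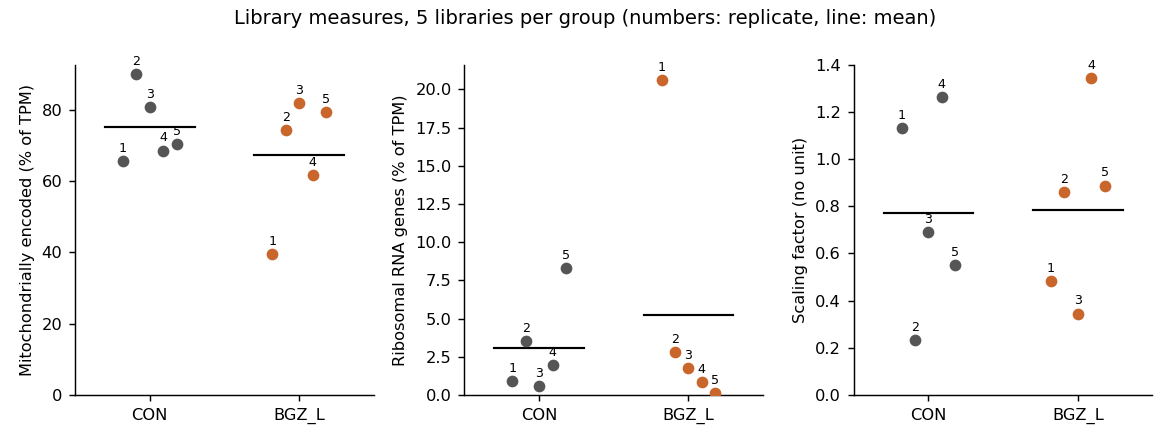
Share of TPM from mitochondrially encoded genes (%), share from ribosomal RNA genes (%) and scaling factor (no unit) for each library, with the replicate number above each point and the group mean as a line. The groups overlap in all 3 panels, and BGZ_L 1 lies apart with 39.6% mitochondrial and 20.6% ribosomal RNA.

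No gene passed an adjusted p of 0.05 between BGZ_L and CON. Levels are given below as scaled TPM, and differences as log2 fold changes of the scaled TPM plus 0.5, each with its standard error from limma. Of 11867 genes, 0 passed (0%, limma with Benjamini-Hochberg adjustment), and 714 (6.02%) had an unadjusted p under 0.05, 360 with a higher mean in BGZ_L (3.03%) and 354 with a lower mean (2.98%). With limma's plain prior the counts were 0 and 710, and in a fit of the 10 BGZ_L and CON libraries alone 0 and 361. The 5 BGZ_L libraries lay wholly above the 5 CON libraries for 33 genes (0.278%) and wholly below for 39 (0.329%). The median 95% interval of a gene reached 0.70 log2 to each side of its estimate, so for a typical gene a difference smaller than that was not resolved. That interval is not adjusted for the number of genes, and larger differences could also miss the adjusted threshold. Cyp8b1 at 2.07 log2 and Rhbg at 2.23 log2 did not pass. The genes below were named by rule, and none of their differences is called.

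The gene nearest to the threshold was Rhbg, which encodes a membrane transporter for ammonium and is made in the hepatocytes around the central vein. Its scaled TPM was 3.23, 1.12, 1.59, 4.70 and 7.67 in CON 1 to 5, and 25.4, 10.48, 11.5, 18.7 and 17.9 in BGZ_L 1 to 5. The lowest BGZ_L library was thus above the highest CON library. The difference was 2.23 ± 0.38 log2 (95% interval 1.44 to 3.01, unadjusted p = 8.8e-06, adjusted p = 0.105 in limma). Without CON 5, the CON library with the highest Rhbg level, the adjusted p was 0.0094, and when each of the other 9 libraries was left out it stayed above 0.05, up to 0.324. Rhbg belongs to a list of 17 tested genes of the pericentral zone and of Wnt signalling, drawn up after its value was seen. In that list 1 gene, Rhbg itself, had an unadjusted p under 0.05, and the list's median difference was 0.02 log2 beside -0.01 over all genes tested. Glul, the glutamine synthetase of the same cells, stood at 49.8 ± 35.7 in CON and 68.8 ± 16.3 in BGZ_L (SD, n = 5 each, 0.65 ± 0.34 log2, limma adjusted p = 0.826). CON 3 stood at 112 and the other CON libraries at 23.0 to 44.8, and the difference was 1.002 log2 without CON 3 and 0.40 when nuclear genes were rescaled to a common total (the nuclear scale).

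Of the 8 named genes with a higher mean in BGZ_L, Vat1, which encodes a vesicle membrane protein, had the tightest groups. Its scaled TPM was 6.39, 9.46, 8.54, 7.38 and 8.14 in CON and 11.2, 13.8, 15.9, 12.04 and 13.98 in BGZ_L, again without overlap (0.71 ± 0.19 log2, limma adjusted p = 0.397). Amacr, a racemase needed to shorten the bile acid side chain and branched fatty acids in peroxisomes, had 58.0, 35.2, 48.4, 39.9 and 72.2 in CON and 76.5, 97.0, 132, 85.7 and 101 in BGZ_L. All 5 BGZ_L values of Amacr exceeded all 5 CON values, by a mean of 0.97 ± 0.25 log2 (limma adjusted p = 0.393). Cyp8b1, the sterol 12-alpha-hydroxylase that directs bile acid synthesis towards cholic acid, had 3.72, 0.48, 3.01, 2.74 and 4.92 in CON and 35.1, 5.49, 7.93, 9.14 and 18.8 in BGZ_L. Its groups did not overlap either, and the gap between the nearest libraries was narrow (4.92 and 5.49) beside the mean difference of 2.07 ± 0.54 log2 (limma adjusted p = 0.393). Pdzk1, a scaffold for membrane transporters, ranged from 1.94 to 6.03 in CON and from 5.08 to 10.7 in BGZ_L, so these groups overlapped. Pgap2, an enzyme of GPI-anchor maturation, Iqch and Tex36 made up the 8, with differences of 1.14 ± 0.26, 1.23 ± 0.28 and 1.58 ± 0.42 log2 and limma adjusted p of 0.358, 0.358 and 0.397.

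Of the genes with a lower mean, 6 are described. Bach2, a repressor best known in lymphocytes, had a scaled TPM of 10.7, 5.23, 1.68, 14.4 and 5.396 in CON and 1.30, 0.59, 0.67, 1.87 and 1.13 in BGZ_L. Only CON 3 lay inside the BGZ_L range, and the difference was -2.09 ± 0.53 log2. Ptp4a1, a phosphatase, had 86.9, 38.8, 62.9, 71.1 and 69.4 in CON and 23.1, 28.8, 28.1, 37.7 and 43.8 in BGZ_L, where CON 2 fell below BGZ_L 5 (-1.005 ± 0.27). The others were Nid2, a basement membrane protein (-1.59 ± 0.42), Zmym4 (-1.44 ± 0.36), Bcl3, a partner of NF-kappa-B (-1.31 ± 0.33), and the histone gene H3f3c (-2.13 ± 0.51). Their limma adjusted p lay between 0.393 and 0.397. For 3 of them leaving out 1 library gave an adjusted p under 0.05, namely Bcl3 without CON 3 (0.037), Zmym4 without BGZ_L 1 (0.0085) and H3f3c without CON 5 (0.021).

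**Figure D2:**
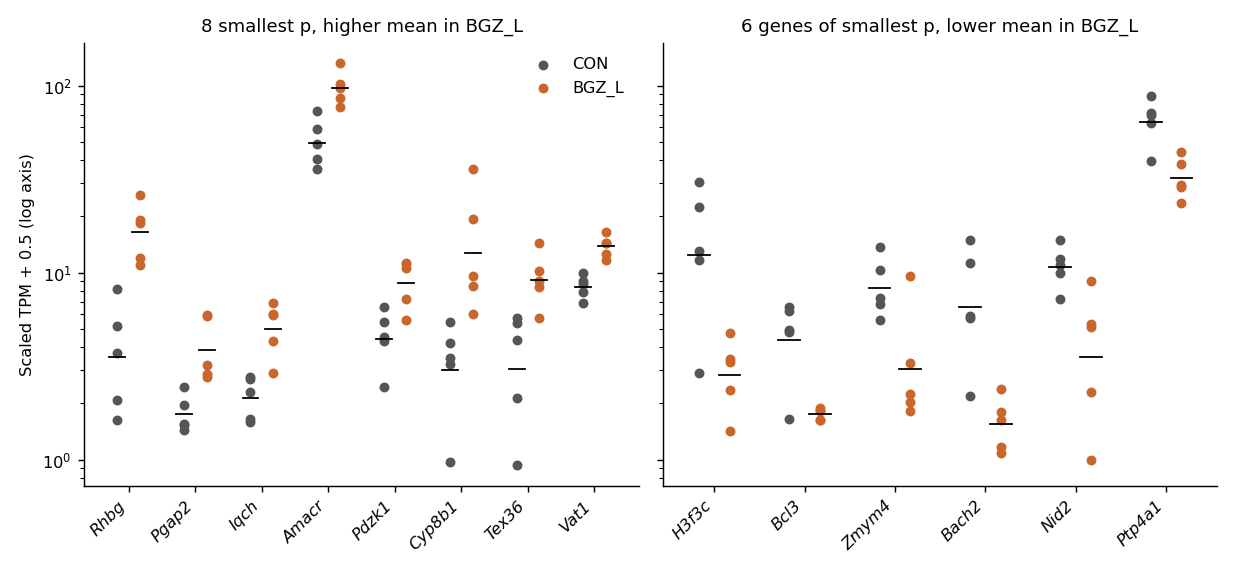
Scaled TPM plus 0.5 on a log axis for 8 genes with a higher and 6 with a lower mean in BGZ_L, chosen by their small p, with grey points for the 5 CON and orange points for the 5 BGZ_L libraries and a black bar at the mean of the log2 values. Rhbg separates the groups with 1.12 to 7.67 TPM in CON and 10.48 to 25.4 in BGZ_L, whereas Bach2 overlaps with 1.68 to 14.4 and 0.59 to 1.87.

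Gene lists were described by counts and medians, with 39 lists in all, of which 38 had a tested member and 0 had a member that passed. Over all 11867 genes tested 5785 had a higher and 6082 a lower mean in BGZ_L. At unadjusted p under 0.05, 3.03% of all genes were higher and 2.98% lower. The counts of every list below stand beside these shares. Of 22 tested enzymes of cholesterol synthesis 21 had a lower mean in BGZ_L, with a median of -0.75 log2 beside -0.01 over all genes tested, and 4 had an unadjusted p under 0.05 beside 2.98% of all genes in that direction. Among the 4 were Mvk (-0.71 ± 0.19), Idi1 (-1.72 ± 0.65) and Nsdhl (-0.77 ± 0.32), enzymes from the mevalonate steps to the late sterol steps. Idi1, which interconverts the isoprenoid building blocks, had 1.06, 2.85, 1.201, 11.2 and 25.5 in CON and 0.93, 1.11, 0.64, 1.63 and 0.77 in BGZ_L. CON 4 and CON 5 stood far above the other 8 libraries. The summed level of the list showed the same pair, with 488 in CON 4 and 637 in CON 5, against 88.5 to 162 in the other CON libraries and 103 to 249 in BGZ_L. With CON 4 and CON 5 left out together, chosen after their values were seen, the list's median was 0.09 log2.

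Glycolysis and lipogenesis genes had 14 of 19 lower means and a median of -0.34 log2. Of the 19, 4 had an unadjusted p under 0.05, all lower, beside 2.98% of all genes in that direction. Among them were Fasn, Acly and Srebf1. Fasn, the fatty acid synthase, had 0.42, 0.56, 2.85, 4.95 and 5.05 in CON and 0.72, 0.22, 0.12, 0.42 and 0.19 in BGZ_L (-1.63 ± 0.46 log2, limma adjusted p = 0.442). CON 1 and CON 2 lay inside the BGZ_L range, and the other 3 CON libraries were above it. Acly, which makes the acetyl-CoA for fat synthesis, had 1.98 to 10.03 in CON and 1.51 to 4.21 in BGZ_L (-0.94 ± 0.37). Without CON 4 and CON 5 the differences were -0.88 log2 for Fasn and -0.38 for Acly, and the list's median was -0.19. Ppp1r3b, which brings protein phosphatase to glycogen, was tested with gluconeogenesis genes and had 3.39 to 10.2 in CON and 1.80 to 5.30 in BGZ_L (-1.09 ± 0.30 log2, limma adjusted p = 0.429). In that list 9 of 15 means were higher, with a median of 0.08 log2. Pck1, the gate of gluconeogenesis, stood at 94.4 ± 19.1 and 114 ± 18.9 (SD, n = 5 each, 0.28 ± 0.33 log2, limma adjusted p = 0.909). The list's median turned to -0.11 on the nuclear scale.

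Fatty acid oxidation genes and PPAR-alpha targets had 21 of 31 higher means and a median of 0.18 log2, which was -0.08 on the nuclear scale. Hadhb, a subunit of the mitochondrial trifunctional protein, and Vnn1, a pantetheinase, were higher at unadjusted p under 0.05 (0.84 ± 0.33 and 0.83 ± 0.33), and the fasting hormone Fgf21 was lower (-0.996 ± 0.439). Cpt1a, which lets long-chain fatty acids into mitochondria, stood at 21.0 ± 8.49 and 19.4 ± 9.82 (SD, n = 5 each). Bhmt, an enzyme of methionine recycling, had the smallest p of the amino acid genes (1.17 ± 0.34 log2, limma adjusted p = 0.475). Of 29 amino acid and urea cycle genes, 16 had a higher mean and the median was 0.02 log2, or -0.21 on the nuclear scale.

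Bile acid synthesis genes pointed in opposite ways. Of 16 tested, Amacr, Cyp8b1 and the peroxisomal oxidase Acox2 (0.62 ± 0.23) were higher at unadjusted p under 0.05, and the conjugating enzymes Baat and Slc27a5 were lower (both -0.89 log2), with a list median of -0.11. Cyp7a1, the rate-limiting enzyme of the classic route, ranged from 2.55 to 36.7 in CON and from 1.56 to 14.9 in BGZ_L (-0.96 ± 0.65 log2, limma adjusted p = 0.859), and its difference was -0.50 log2 without CON 4 and turned to 0.12 without CON 4 and CON 5. Among 12 transporters 10 had a lower mean and the median was -0.54 log2. Their summed level was 158 in CON 4 and 124 in CON 5, against 57.1 to 94.7 in the other CON libraries and 43.1 to 110 in BGZ_L. Abcb11, the bile salt export pump, had 9.56, 9.03, 2.85, 17.9 and 18.4 in CON and 11.6, 2.14, 3.76, 3.64 and 6.60 in BGZ_L (-0.96 ± 0.41 log2, limma adjusted p = 0.784). The groups overlapped through CON 3 and BGZ_L 1, and without CON 4 and CON 5 the difference of Abcb11 was -0.38 log2. Abcg5, a sterol exporter to bile, did not overlap, with 1.36 to 4.07 against 0.48 to 1.27 (-1.08 ± 0.34 log2, limma adjusted p = 0.537). Abcg2 was also lower at unadjusted p under 0.05 (-0.66 ± 0.26). Abcc3, which exports bile acids to the blood, was higher (1.38 ± 0.63), with 16.6 in BGZ_L 3 and at most 1.17 in the other 9 libraries.

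Among the 7 tested genes of the AhR battery, Cyp1a1, Cyp1a2 and Nqo1 had higher means in BGZ_L and the other 4 lower means, and 0 passed. Cyp1a1 had 1.05, 0.73, 0.07, 3.19 and 2.80 in CON and 16.7, 1.44, 2.35, 6.92 and 4.39 in BGZ_L. The largest BGZ_L value belongs to BGZ_L 1, the library with the high ribosomal RNA share, and BGZ_L 2 and BGZ_L 3 lay within the CON range. The difference was 1.60 ± 0.67 log2 (limma adjusted p = 0.784). Cyp1a2 had 46.3, 11.2, 24.1, 60.9 and 44.9 in CON and 110, 35.9, 46.9, 121 and 93.0 in BGZ_L, with 3 BGZ_L libraries above all CON libraries (1.17 ± 0.58 log2, limma adjusted p = 0.826). Nqo1, a quinone reductase that AhR and NRF2 both control, had 0.53, 0.95, 0.55, 0.64 and 2.29 in CON and 1.34, 1.00, 2.92, 2.14 and 4.71 in BGZ_L (0.94 ± 0.43 log2, limma adjusted p = 0.813). The receptor gene Ahr itself stood at 1.65 ± 1.51 and 1.07 ± 1.33 (SD, n = 5 each), and the list's median was -0.40 log2. Of 19 NRF2 targets 11 had a higher mean, with a median of 0.08 log2 that turned to -0.20 on the nuclear scale, and Hmox1 differed by 0.67 ± 0.55. At unadjusted p under 0.05 Nqo1 and Abcc3 of this list were higher, and Osgin1 was lower (-0.99 ± 0.38). Of 22 CAR and PXR targets 8 had a higher mean, and at unadjusted p under 0.05 Aldh1a1 was higher (1.24 ± 0.52) while Cyp3a18 (-1.94 ± 0.77), Cyp3a9 and Cyp2c22 (-1.17 ± 0.52) were lower. The usual CAR target Cyp2b1 was at 5.00 ± 3.32 and 6.72 ± 6.61 (SD, n = 5 each), a difference of 0.13 ± 0.68 log2 whose sign turned to -0.11 on the nuclear scale.

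**Figure D3:**
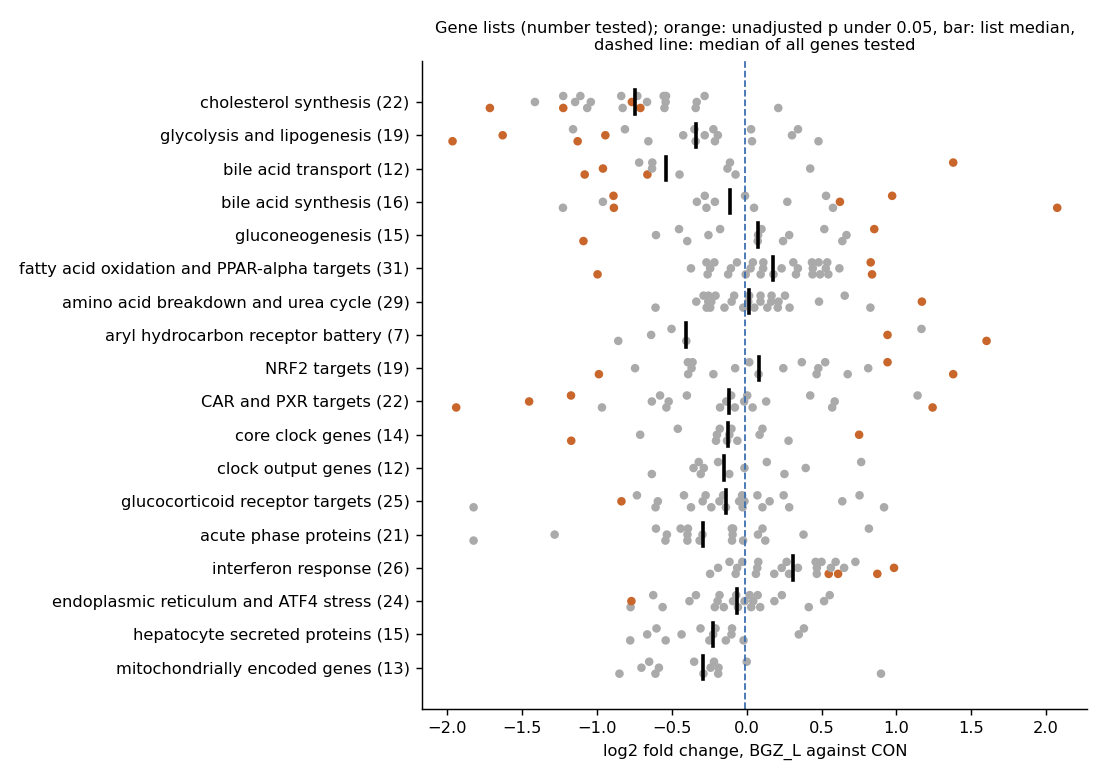
Log2 fold change of BGZ_L against CON for each tested member of 18 gene lists, with orange points at unadjusted p under 0.05, a black bar at each list's median and a dashed line at the median of all genes tested (-0.01). Cholesterol synthesis has the lowest median (-0.75) and interferon response the highest (0.31) of the lists drawn.

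No clock gene passed in rats given the powder alone. Of 14 core clock genes 4 had a higher and 10 a lower mean, and at unadjusted p under 0.05 Nr1d1 was higher and Per3 lower. Nr1d1, which encodes the repressor REV-ERB-alpha, had 5.64, 4.19, 6.50, 4.79 and 3.16 in CON and 6.09, 6.21, 7.70, 12.5 and 10.7 in BGZ_L (0.75 ± 0.30 log2, limma adjusted p = 0.783). Dbp, a clock-driven transcription factor with a wide daily swing, had 62.8, 23.9, 37.4, 46.0 and 61.2 in CON and 76.3, 53.7, 57.6, 111 and 87.3 in BGZ_L (0.76 ± 0.38 log2, limma adjusted p = 0.826). For both genes the BGZ_L libraries lay in the upper part of the CON range or above it. Per2 had 6.58 to 19.4 in CON and 8.17 to 18.8 in BGZ_L (0.09 ± 0.30 log2, limma adjusted p = 0.971), with a sign that turned to -0.17 on the nuclear scale. Per3 had 19.0, 8.17, 13.7, 25.0 and 34.8 in CON and 2.45 to 17.4 in BGZ_L (-1.17 ± 0.47 log2, limma adjusted p = 0.784). Without CON 4 and CON 5 the difference of Per3 was -0.71 log2.

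The same powder had also been given with hydrocortisone, and that comparison shares no library with the present one. Between KYDS+BGZ_L and KYDS 15 genes passed (0.126%), 7 higher (0.059%) and 8 lower (0.0674%), with 405 at unadjusted p under 0.05 (3.41%). The test of whether the powder's difference itself changed with hydrocortisone was passed by 3 genes (0.0253%), and 446 had an unadjusted p under 0.05 (3.76%). Dbp was 48.2, 65.0, 42.0, 10.6 and 49.8 in KYDS and 3.61, 3.67, 2.58, 2.81 and 3.14 in KYDS+BGZ_L, so that the powder's difference was 0.76 log2 without hydrocortisone and -3.37 ± 0.38 with it (change of -4.14 ± 0.54, limma adjusted p = 0.0031). Nr1d1 went the same way, from 0.75 to -2.03 ± 0.30 log2 (change of -2.78 ± 0.42, limma adjusted p = 0.011). As the hour of sampling is not stated, a difference of hour between groups cannot be told apart from one of treatment for both genes. Dipk2a, which encodes a protein of the secretory pathway, had 0.80, 0.78, 0.69, 0.49 and 0.84 in CON and 0.14, 0.23, 0.12, 0.13 and 0.33 in BGZ_L, but 1.08 to 3.22 in KYDS and 3.07 to 5.26 in KYDS+BGZ_L. Its difference was -0.82 ± 0.22 log2 without hydrocortisone and 1.01 ± 0.22 with it (change of 1.83 ± 0.31, limma adjusted p = 0.034). This call was lost in 14 of the 20 fits with a single library left out, with a pseudocount of 1 and with the replicate block, whereas those of Dbp and Nr1d1 were kept in these fits. Per2 came next with a change of -2.39 ± 0.42 log2 (limma adjusted p = 0.051). Without scaling between libraries, and on the nuclear scale, 0 genes passed this test (374 and 211 at unadjusted p under 0.05).

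**Figure D4:**
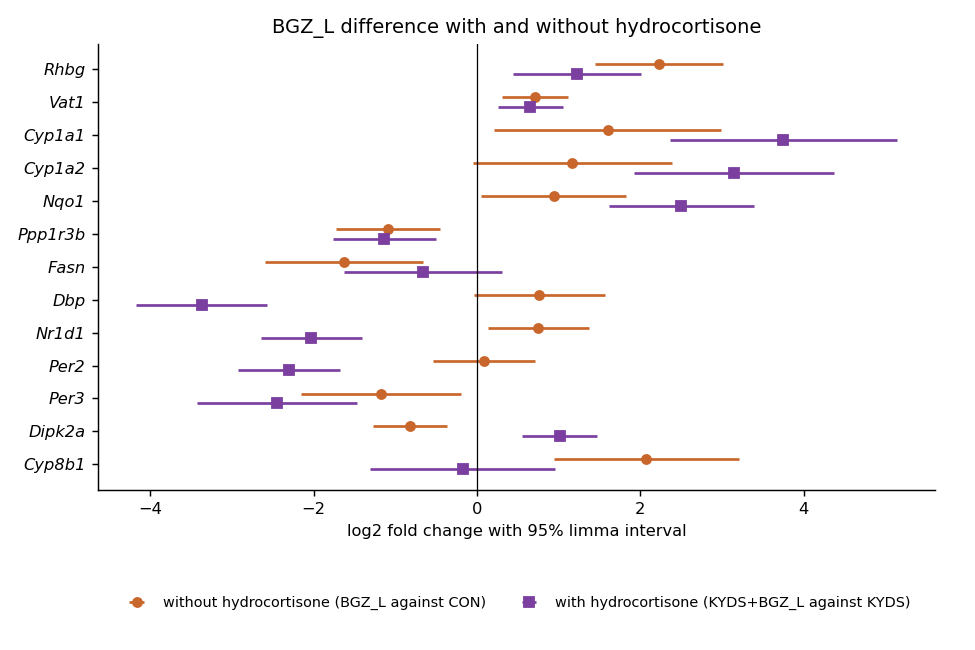
Log2 fold change for BGZ_L with its 95% limma interval, without hydrocortisone (orange circles, BGZ_L against CON) and with it (purple squares, KYDS+BGZ_L against KYDS), for 13 of the named genes. Dbp lies at 0.76 and -3.37 and Nr1d1 at 0.75 and -2.03, whereas Vat1 lies at 0.71 and 0.65.

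RefSeq's promoter table (rat build GRCr8) lists 2 start sites for Nr1d1, and the 250 bases before the second hold the palindrome CACGTG, the E-box sequence that CLOCK and BMAL1 bind, beginning 191 bases before the start. The 250 bases before the first start of Nr1d1 do not hold CACGTG. Nr1d1 is a gene whose difference changed with hydrocortisone, and Nqo1 an AhR gene that passed in rats given hydrocortisone. Both windows printed hold a match. Dbp also changed and Cyp1a2 also passed, but their windows are not printed, and they hold no CACGTG (Dbp) and no GCGTG (Cyp1a2). Windows were read 5′ to 3′ on the gene's own strand and searched on both strands, with the match in capitals.
Nr1d1, second start, GRCr8 chr10:84229455-84229704, minus strand: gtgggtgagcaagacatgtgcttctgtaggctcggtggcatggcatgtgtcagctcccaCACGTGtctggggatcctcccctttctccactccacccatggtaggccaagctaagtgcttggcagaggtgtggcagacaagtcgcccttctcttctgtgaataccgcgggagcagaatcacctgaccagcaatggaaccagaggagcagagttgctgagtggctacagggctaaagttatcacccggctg
Nqo1, GRCr8 chr19:52220268-52220517, minus strand: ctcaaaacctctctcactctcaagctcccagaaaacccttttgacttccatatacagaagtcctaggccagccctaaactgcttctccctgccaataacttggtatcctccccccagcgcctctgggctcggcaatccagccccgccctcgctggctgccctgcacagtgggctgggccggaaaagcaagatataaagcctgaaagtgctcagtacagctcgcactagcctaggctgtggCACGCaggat
CACGTG was in 5.59% of the 33469 windows of this length in the table, and the windows of Dbp, Per2, Per3, Rhbg, Cyp1a2 and Nqo1 did not hold these letters. GCGTG, the core of the AhR response element, was in 25.9% of them, and in Nqo1 it lies on the opposite strand, as CACGC, beginning 10 bases before the start. GCGTG was also in the windows of Dbp, Per3 and the first start of Nr1d1, but not in those of Cyp1a2, Per2 or Rhbg.

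The AhR genes Cyp1a1, Cyp1a2 and Nqo1 passed with hydrocortisone, and their estimates had the same sign without it. Without scaling between libraries none of the 3 passed with hydrocortisone, and on the nuclear scale only Cyp1a1 did. With a single library of the 10 left out, Cyp1a1 passed in 5 fits, Cyp1a2 in 2 and Nqo1 in 8. In KYDS Cyp1a1 lay between 0.10 and 0.95 and in KYDS+BGZ_L between 2.43 and 37.9, a difference of 3.75 ± 0.67 log2 (limma adjusted p = 0.025) beside 1.60 without hydrocortisone. Cyp1a2 rose by 3.14 ± 0.58 log2 with hydrocortisone (limma adjusted p = 0.032) beside 1.17, and Nqo1 by 2.50 ± 0.43 (limma adjusted p = 0.017) beside 0.94. Although the estimates were larger with hydrocortisone, the change itself did not pass for these genes (limma adjusted p = 0.999 for each, with changes of 2.15 ± 0.94, 1.98 ± 0.83 and 1.56 ± 0.60 log2). The groups were fully separated in both comparisons, in the same direction, for 2 genes, Rhbg and Vat1, both higher with BGZ_L (33 genes were separated higher without hydrocortisone, and 46, or 0.388%, with it). For lower levels the count was 0, of 39 and 116 (0.978%). Rhbg was 3.45 to 7.95 in KYDS and 9.82 to 19.9 in KYDS+BGZ_L (1.22 ± 0.38 log2, limma adjusted p = 0.542), and Vat1 7.29 to 10.8 and 11.3 to 19.7 (0.65 ± 0.19, limma adjusted p = 0.463).

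The powder's difference averaged over rats with and without hydrocortisone, a contrast added after the values were seen, was called for 11 genes (0.0927%), 6 higher (0.0506%) and 5 lower (0.0421%). Higher were Cyp1a1 (2.67 ± 0.47 log2), Cyp1a2 (2.16 ± 0.41), Rhbg (1.72 ± 0.27), Nqo1 (1.72 ± 0.30), Anxa7 (1.07 ± 0.18) and Mk1 (0.94 ± 0.16). Lower were Per3 (-1.81 ± 0.33), Thrsp, a regulator of fat synthesis (-1.52 ± 0.25), Ppp1r3b (-1.11 ± 0.21), Per2 (-1.11 ± 0.21) and Crabp2, a symbol shared by several identifiers (-0.89 ± 0.15), with limma adjusted p from 0.026 to 0.050. Crabp2 reached at most 0.097 in BGZ_L and 0.25 in KYDS+BGZ_L, below the 0.5 added before taking logs. Its averaged difference ran from -1.89 to -0.56 log2 over the alternative fits. The average rests on both comparisons for some genes, such as Ppp1r3b (-1.09 alone and -1.13 with hydrocortisone), and mostly on the hydrocortisone rats for others, such as Thrsp (-0.66 and -2.39) and Per2 (0.09 and -2.31). The count was 0 without scaling between libraries, on the nuclear scale, without KYDS 1 or without KYDS+BGZ_L 1. Rhbg was called in 27 and Thrsp in 24 of 31 alternative fits, and Ppp1r3b in 6.

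**Figure D5:**
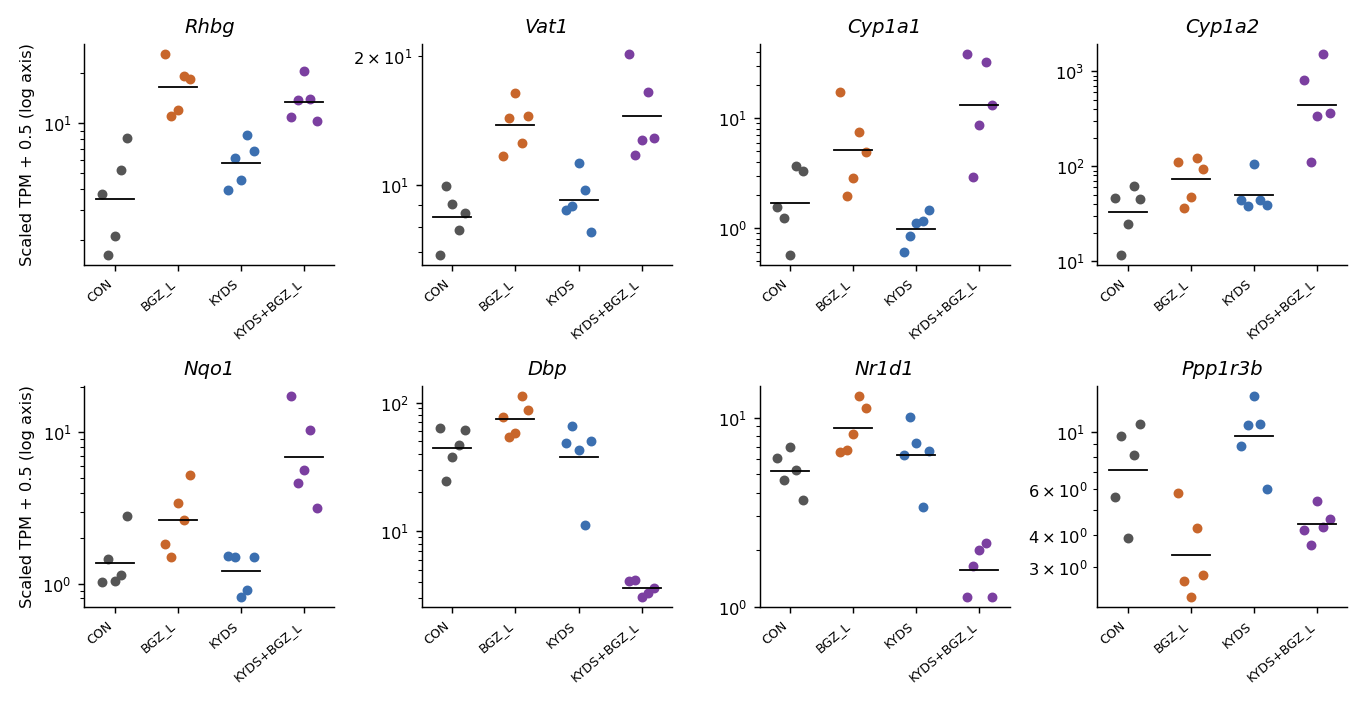
Scaled TPM plus 0.5 on a log axis in each of the 20 libraries for 8 genes, 5 libraries per group, with a bar at the mean of the log2 values. Rhbg and Vat1 are higher in both BGZ_L groups than in their controls without overlap, and Dbp is at 2.58 to 3.67 TPM only in KYDS+BGZ_L.

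Interferon response genes had 20 of 26 higher means, with a median of 0.31 log2. At unadjusted p under 0.05 4 were higher, among them the immunoproteasome subunits Psmb9 (0.98 ± 0.31) and Psmb8 (0.87 ± 0.37) and Usp18 (0.61 ± 0.25). Psmb8 stood at 50.8 in BGZ_L 2, the library with the highest macrophage markers, and at most at 19.7 in the other 9, and without BGZ_L 2 its difference was 0.55 log2. Acute phase proteins had 16 of 21 lower means with a median of -0.30 log2. Hamp, the iron hormone hepcidin, was 1009, 944, 94.6, 658 and 942 in CON and 260, 150, 185, 217 and 417 in BGZ_L (-1.28 ± 0.62 log2, limma adjusted p = 0.826). All BGZ_L libraries were below CON 1, 2, 4 and 5, and CON 3 was below all BGZ_L libraries. Alb, encoding albumin, stood at 3443 ± 1070 and 1974 ± 513 (SD, n = 5 each, -0.78 ± 0.59 log2, limma adjusted p = 0.881), and 13 of 15 secreted protein genes had a lower mean (median -0.22).

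Markers of other cell types were read for the same 10 libraries. Of 12 Kupffer cell and macrophage markers 9 had a higher mean in BGZ_L, with a median of 0.66 log2 and 1 at unadjusted p under 0.05, the scavenger receptor Marco (1.64 ± 0.53). Their summed level was 71.6 to 109 in CON and 72.2 to 862 in BGZ_L, with 862 in BGZ_L 2 and 201 in BGZ_L 5. Without BGZ_L 2 the median was 0.08 log2. The summed level of B and plasma cell markers was also highest in BGZ_L 2 (399, beside 51.9 to 105 in CON). Cd74 alone gave 395 of that sum. The B cell gene Cd79b stood at 0.19 in BGZ_L 2, beside 0.72 to 1.10 in the other BGZ_L libraries and 0.15 to 1.45 in CON. The part of macrophages or other immune cells in the interferon values was not tested. Of 6 cholangiocyte markers all had a lower mean (median -0.70 log2), with summed levels of 8.10 to 47.3 in CON and 5.94 to 20.9 in BGZ_L. Of 6 erythroid markers all had a higher mean (median 0.50 log2), with overlapping sums of 669 to 2774 and 1507 to 3118. Endothelial markers summed to 64.2 to 91.3 in CON and 52.1 to 84.9 in BGZ_L, with a median of 0.09 log2 that was -0.11 on the nuclear scale.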

How the data were processed

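Rat liver RNA (Trizol, DNase I) was sequenced in pairs, and read 1 alone was used by the authors, per the labels' protocols. The submitters' processing notes name GRCm 38, GRCm 39 and mm 10, which are mouse builds, while gene identifiers are rat Ensembl identifiers, so the build is unknown; which aligner and counter were used is not given in the sources used here. Despite a name that speaks of raw counts, the values the authors deposited have 2 decimals and sum to 914343 to 983962 per library, so they were read as TPM. The planned count test therefore did not apply and limma was used. Depth is unknown, so no interval that needs it was computed.

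Libraries were brought to 1 scale with an unweighted trimmed mean of their log ratios (30% of ratios and 5% of levels cut from each end). Genes reaching 0.5 scaled TPM in at least 5 libraries entered as log2 of scaled TPM plus 0.5, which understates differences of low genes. A single limma model held the 4 group means (trended, robust prior, 16 residual degrees of freedom), two-sided, with Benjamini-Hochberg adjustment over 11867 genes; adjusted p-values refer to that fit. The comparisons with and without hydrocortisone share its spread estimate and scaling. On the nuclear scale, TPM were rescaled to the total of nuclear genes with no further scaling. Library measures were compared by exact permutation tests. The fit was tested on simulated data.

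Groups came from the sample titles, and p-values measure the spread between these libraries. The highest correlation between libraries was 0.978. Named genes were the 8 with the smallest p per direction (mean log2 of at least 1, no provisional or shared symbol), 3 per described list by p, a standing set of liver genes and the 4 smallest interaction p; other members, and the genes of the averaged contrast, were named after their values were seen. A symbol with several identifiers is uncertain (2867 identifiers share one; Crabp2 is such a case). A few genes that met the rule are not reported here. Members and lists were chosen with earlier results of these data known. Alternatives were scaling, pseudocount, filter, prior, a covariate, the replicate block and left-out libraries. Tools were R 4.3.3, limma 3.58.1, data.table (version 1.17.8), Python 3.11.15 and matplotlib 3.10.9.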

Additional observations from a re-analysis of the deposited data

Results flagged for a closer look

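The difference between rats with and without BGZ_L changed with hydrocortisone for 3 genes by the test of that change, Dbp by -4.14 log2, Nr1d1 by -2.78 and Dipk2a by 1.83. The call of Dipk2a was lost in 14 of the 20 fits with a single library left out, and those of Dbp and Nr1d1 in 0. All 3 calls were lost without scaling between libraries and on the nuclear scale. With CON 2 and BGZ_L 3 left out together only the call of Dbp was kept. In BGZ_L the scaled TPM of Dipk2a was 0.12 to 0.33, below the 0.5 added before taking logs.

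In the following a single library stood far from the other 4 of its group. Of 286 groups examined 18 were marked, where chance marks about 1 in 20. BGZ_L 1 was apart in the ribosomal RNA share (20.6%), in the share of signal recognition particle and 7SK RNAs (4.11%, with CON 5 apart in CON at 0.600%), and, as log2 of scaled TPM plus 0.5, in Per1 (2.07) and the glucose-6-phosphatase gene G6pc (3.99, with CON 4 apart in CON at 4.53). CON 3 was apart in Bcl3 (0.72), the NRF2 target Osgin1 (4.73), Hamp (6.57), the endothelial receptor Stab2 (0.73) and the muscle genes Actn2 (4.67) and Actn3 (-0.67, where the other 4 were listed at 0). CON 2 was apart in Mt-nd4 (15.6) and CON 4 in Abcc3 (0.58). BGZ_L 3 was apart in Abcc3 (4.09) and in the amino acid enzyme Sds (5.20), BGZ_L 4 in the cholangiocyte marker Spp1 (2.11) and BGZ_L 5 in the elastase gene Cela1 (5.18).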

How the results depend on the processing

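Between BGZ_L and CON 0 genes passed, and 0 with the replicate block; 1 passed with the ratio of nuclear to mitochondrial RNA as covariate (Alpk2), 1 without CON 2 and BGZ_L 3 together (RGD1309808), 2 without CON 4 and CON 5 together (Fbxo16 and Rhbg, added after seeing the data; these are the CON libraries with the highest Rhbg levels), and 0 to 3 with single libraries left out, 3 without CON 5, 2 without BGZ_L 1 (Slc10a6 and Zmym4) and 1 without CON 3 or BGZ_L 5. Genes at unadjusted p under 0.05 numbered 190 without scaling, 361 in the 10 libraries alone, 1121 with the covariate and 1581 without CON 3, beside 714. With hydrocortisone 15 became 4 without scaling, 6 on the nuclear scale and 6 to 16 with a library left out. The changed differences went from 3 to 0 without scaling or on the nuclear scale, to 1 without CON 2 and BGZ_L 3, and to 2 to 5 with a library left out. The averaged count of 11 became 0 without scaling or on the nuclear scale, 7 with a pseudocount of 1, 5 without a filter, 7 with the replicate block, 19 with the covariate, 2 without CON 2 and BGZ_L 3, and 0 to 14 with a library left out. Whether replicate numbers pair the samples is not known. Correlations of same-numbered BGZ_L and CON libraries ran from -0.046 to 0.264, 1 of 5 above 0.1 and 0 of 5 best with their own number. Such correlations cannot show that pairing is absent. The cause of these shifts was not tested. The alternatives planned for a table of counts were not run, since the values are TPM.

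Differences between BGZ_L and CON that turned sign follow. On the nuclear scale Cyp2b1 turned to -0.11 log2, Per1 to -0.14, Per2 to -0.17, Nr1i2 to -0.26 and Nr1i3 to -0.23; with the covariate Cyp2b1 to -0.17, Per1 to -0.000181, Arntl to 0.021 and Esr1 to 0.044; without CON 2 and BGZ_L 3 S100a8 to 0.062, Cpt1a to 0.032 and Nr1i2 to -0.075; without CON 4 and CON 5 Tat to 0.14, Cyp3a23/3a1 to 0.16, Cyp7a1 to 0.12, Cpt1a to 0.073 and Ahr to 0.12; and in the 10 libraries alone Nr1i2 to -0.00732. With a library left out Cd79b ran from -0.47 to 0.020, S100a8 from -0.96 to 0.25, Cyp2b1 from -0.34 to 0.65, G6pc from -0.13 to 1.71, Cpt1a from -0.42 to 0.041, Per1 from -0.21 to 0.30, Per2 from -0.15 to 0.27, Nr1d2 from -0.37 to 0.14, Arntl from -0.30 to 0.044, Clock from -0.13 to 0.080, Nr1i2 from -0.17 to 0.22, Nr1i3 from -0.23 to 0.38 and the scaling factor difference from -0.129 to 0.134.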
